A study of Mus musculus with 384 samples.

Results

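The CCAAT/enhancer-binding protein (C/EBP) genes were followed in single granulocyte/macrophage progenitors (GMPs) of mice with and without the BCR-ABL oncogene. The genes are Cebpa, Cebpb, Cebpd, Cebpe, Cebpg and Cebpz, 6 of 46078 gene rows, and were chosen by name from the Ensembl rows of the deposited counts. All 6 passed the filter on low counts. The samples are 384 wells, each sorted to hold 1 cell, in 4 sets of 96 wells. The sets are BCR-ABL replicates 1, 2 and 4 and a single Control set.

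The BCR-ABL mice were C57Bl/6 animals with the transgenes Scl-tTA and TRE-BCR/ABL, in which the Scl promoter drives the transactivator in blood stem and progenitor cells. They were bred on doxycycline at 20 mg/L in the drinking water, and the oncogene was induced by withdrawing the drug at 5 weeks of age. Marrow of BCR-ABL and Control mice was taken 5 to 6 weeks after induction. The Control set has the strain C57Bl/6 and the treatment label control, and the labels give no genotype for it. The sorting gate for GMPs took cells with c-Kit, CD34 and FcγR and left out those with Sca-1 or lineage markers. The labels name no animals, so p-values here measure only the spread between sets, which may be technical.

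C/EBP proteins are basic leucine-zipper factors that bind DNA as dimers and switch on genes of myeloid cells. C/EBPα, encoded by Cebpa, is needed to form GMPs, and C/EBPε, encoded by Cebpe, acts later, in the maturation of granulocytes. Cebpz stands apart: it encodes a CCAAT-binding protein without the leucine zipper that works in ribosome assembly. In human chronic myeloid leukaemia, BCR-ABL is known to act on C/EBPα at the level of translation, and read counts do not measure protein.

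Promoter sequences of RefSeq (GRCm38.p6, the same assembly as mm10) were held for 3 of the 6 genes, Cebpa, Cebpb and Cebpg. The first 2 are shown because they were the pair with the highest correlation within sets. Each line gives the 250 bases before the gene start, 5′ to 3′ on the gene's strand. Capitals mark a TATA box (TATAAA) or a GC box (GGGCGG), searched on both strands.
Cebpa, chr7:35119043-35119292, plus strand: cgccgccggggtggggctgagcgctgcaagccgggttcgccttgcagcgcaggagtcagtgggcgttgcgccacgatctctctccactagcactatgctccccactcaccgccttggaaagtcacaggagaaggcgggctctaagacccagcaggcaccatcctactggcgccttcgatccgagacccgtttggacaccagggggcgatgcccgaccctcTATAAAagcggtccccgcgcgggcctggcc
Cebpb, chr2:167688665-167688914, plus strand: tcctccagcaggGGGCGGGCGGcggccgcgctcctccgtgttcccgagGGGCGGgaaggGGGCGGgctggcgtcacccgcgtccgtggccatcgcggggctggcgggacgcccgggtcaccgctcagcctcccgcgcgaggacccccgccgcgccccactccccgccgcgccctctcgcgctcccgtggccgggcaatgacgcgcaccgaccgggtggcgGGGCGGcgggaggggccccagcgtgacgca
The Cebpa window held 1 TATA box, 30 bases before the start, and no GC box. The Cebpb window held 5 GC boxes, of which the first pair overlaps, and no TATA box. Of 32851 promoter windows of the same length, 12.4% held a TATA box and 32.7% a GC box. The exact letters of a C/EBP motif, TTGCNNAA, were in 9.6% of windows and not in those of Cebpa, Cebpb and Cebpg. C/EBP sites with other letters were not searched for, so these windows are not shown to lack them. G and C made up 66.4% of the Cebpa window and 81.6% of the Cebpb window.

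Wells were used from 50000 reads on genes and 1000 detected genes upwards, which gave 76, 61 and 92 cells in BCR-ABL replicates 1, 2 and 4 and 94 in Control. The median cell had 1483694 reads on genes. Values of single cells come from a random draw of 674952 reads each, called thinning, which left 65, 54 and 81 BCR-ABL cells and 90 Control cells. In the 61 wells below the filter, the median was 0 reads for each of the 6 genes. Xist stood at 323.9 CPM (counts per 1000000 reads on genes) in BCR-ABL replicate 1, at 0 in replicate 2, at 0.156 in replicate 4 and at 461.3 in Control, so replicates 2 and 4 stood apart from the other sets. The 5 eosinophil markers summed to 1257.2 CPM in BCR-ABL replicate 4 and to at most 6.26 CPM in each other set. GMP genes were present in every set, with Kit between 238.8 and 314.0 CPM and Mpo between 28649 and 31626 CPM.

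Cebpb and Cebpa differed with the well number, a pattern found after seeing the data. The deposited tables list each set's wells in 4 runs of 24, the well numbers 1, 5, 9 and on, then 2, 6, 10 and on, and so forth; these runs are called well series here. In BCR-ABL replicate 4, Cebpb stood at 1.42, 3.88, 45.9 and 57.9 CPM in the 4 series. In BCR-ABL replicate 2 it stood at 5.42, 32.6, 58.2 and 34 CPM, and in replicate 1 at 2.53, 7.33, 3.47 and 2.47 CPM. In Control it ran the other way, with 27.3, 25.4, 17.2 and 4.64 CPM. The well series held 2.06%, 32.2% and 75.6% of the variance of log2(CPM + 1) of Cebpb between cells of BCR-ABL replicates 1, 2 and 4, and 23.7% in Control. Among 10762 genes these shares ranked 7992, 6 and 1 in BCR-ABL and 1 in Control. The median gene had 3.90%, 4.91% and 3.34% in BCR-ABL and 2.80% in Control, so replicate 1 did not show the pattern. Cebpa, in BCR-ABL replicate 4, stood at 69.8, 77.3, 112.8 and 232.0 CPM, and the series held 22% of its variance, rank 26 of 10762. In BCR-ABL replicate 2 it stood at 58.8, 99.8, 107.2 and 113.3 CPM, with 13.3% of variance and rank 786. The share for Cebpa was 2.69% in BCR-ABL replicate 1 and 1.34% in Control. What the series correspond to is not given in the sources used here, and their part in the results on these genes was not tested. Of the 12 BCR-ABL series, 8 were above every Control series for Cebpe, 6 for Cebpa, 5 for Cebpb, 1 each for Cebpd and Cebpg and 0 for Cebpz. Below every Control series were 5 for Cebpb, 4 for Cebpg and 1 for Cebpa. Series are parts of a set and not replicates, and the share over all genes was not counted.

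**Figure D1:**
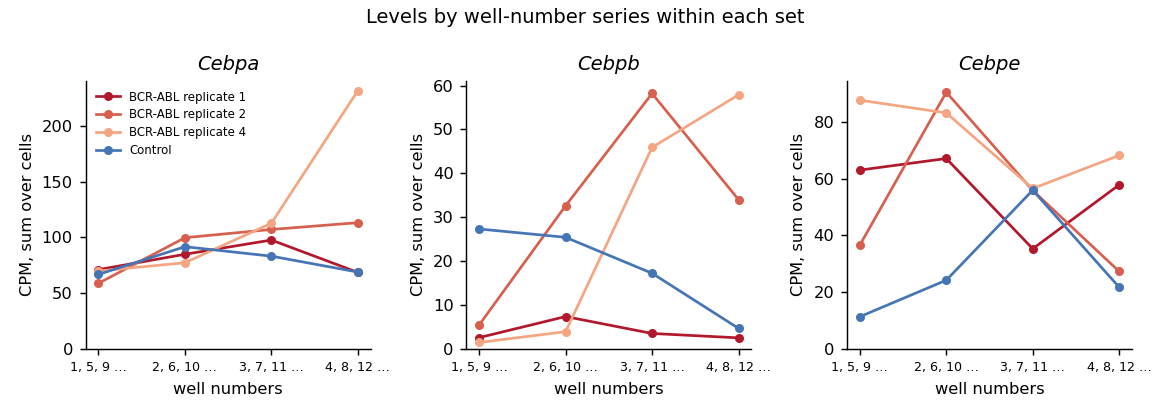
CPM of Cebpa, Cebpb and Cebpe (y axis) in sums over the cells of each well-number series (x axis), with a line for each BCR-ABL replicate and for Control. Cebpb reaches 57.9 CPM in the last series of BCR-ABL replicate 4 and 4.64 CPM in the last series of Control.

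The first question was how much of each C/EBP transcript the sets hold. Levels are compared between genes per kilobase of exon (RPKM), from the set sums. Cebpe was the highest in the BCR-ABL sets, at 49.5 ± 8.31 RPKM (SD, n = 3), and held 23.6 RPKM in Control. Cebpa stood at 38.3 ± 10.6 RPKM in BCR-ABL and 29.5 RPKM in Control, and Cebpd at 34.2 ± 2.89 RPKM in BCR-ABL and 33.8 RPKM in Control. The ranges of Cebpe and Cebpa overlapped over the BCR-ABL sets, as did those of Cebpa and Cebpd. Cebpz followed at 20.3 ± 0.944 RPKM in BCR-ABL and 23 RPKM in Control, below every Cebpd value. Cebpb had 14.2 ± 9.99 RPKM in BCR-ABL and 12.1 RPKM in Control, and its range overlapped those of Cebpz and Cebpg. Cebpg was the lowest on average, at 6.82 ± 1.72 RPKM in BCR-ABL and 8.42 RPKM in Control. In Control the order was Cebpd, Cebpa, Cebpe, Cebpz, Cebpb and Cebpg.

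The comparison between conditions used edgeR's quasi-likelihood test on the summed counts, 3 BCR-ABL sums against 1 Control sum. In a sum, fewer cells with a transcript and less of it per cell cannot be told apart. None of the 6 genes passed at an adjusted p under 0.05, and 0% of 20324 genes did. At an unadjusted p under 0.05 stood 1 of the 6, Cebpe, against 7.18% of all genes (1459). DESeq2 on the same sums called 557 genes, 2.74% of those tested, and Cebpe was one of them. On simulated data in which every gene had the common spread of these sums (biological coefficient of variation 0.68), edgeR called none of the genes that had been changed. Genes were not simulated each at its own spread. A gene that missed the threshold is not shown to be unchanged. With limma-voom no gene passed and 1659 had an unadjusted p under 0.05. The median log2 fold change of the 6 genes was 0.13, against 0.05 over all genes tested.

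Cebpe (ENSMUSG00000052435, mm10 chromosome 14, 54710360 to 54712174, minus strand) is the family member of granulocyte maturation and a regulator of secondary granule genes. It had 56.6, 54.5 and 73.3 CPM in BCR-ABL replicates 1, 2 and 4, against 29.2 CPM in Control. Every BCR-ABL set was above Control. The log2 fold change was 1.09 (SE 0.24, edgeR, unadjusted p = 0.00813, adjusted p = 0.624), and DESeq2 gave 1.08 with an adjusted p of 0.00322. Over the settings tried on all sets the adjusted p ran from 0.00322 to 0.632, and with a BCR-ABL set left out from 0.57 to 0.921. A single cell held 21.3% of the Cebpe reads of BCR-ABL replicate 2 and another 22% of those of Control. The 10 primary granule genes summed to 71881.5, 67560.5 and 76448.0 CPM in BCR-ABL and 60113.0 CPM in Control. The 15 genes of secondary granules and later maturation, called late granulocyte genes here, summed to 1911.6, 1217.3 and 1609.9 CPM in BCR-ABL and 348.3 CPM in Control. Of these, the secondary granule genes Camp, Ltf, Mmp8 and Ngp were each at or under 20.5 CPM in every set. The 14 monocyte genes summed to 5325.5, 5977.2 and 4912.6 CPM in BCR-ABL and 7815.7 CPM in Control. The primary granule and late granulocyte sums were thus higher and monocyte sums lower in each BCR-ABL set than in Control. The part of these genes in the Cebpe difference was not tested. Without BCR-ABL replicate 4, the set with eosinophil genes, the log2 fold change of Cebpe was 0.96 (SE 0.16, edgeR, adjusted p = 0.570). Without the highest cell of each set, the log2 fold change was 1.29 (SE 0.33, edgeR, adjusted p = 0.632).

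Cebpa (ENSMUSG00000034957, chromosome 7, 35119293 to 35121928, plus strand), the factor needed for GMP formation, had 79.4, 90.9 and 132.4 CPM in BCR-ABL, against 77.8 CPM in Control. All 3 BCR-ABL sets were above Control, replicate 1 by a small margin. The log2 fold change was 0.39 (SE 0.32, edgeR, adjusted p = 0.842), and 0.16 (SE 0.15) without BCR-ABL replicate 4. Replicate 4 is the set in which Cebpa varied most with the well series, followed by replicate 2. The annotation puts the antisense gene Gm45091 over 51 bases of its exons.

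Cebpb (ENSMUSG00000056501, chromosome 2, 167688915 to 167690418, plus strand) encodes C/EBPβ, which drives granulocyte production under infection and cytokine stress. It had 3.93, 29.8 and 30.1 CPM in BCR-ABL, against 18.3 CPM in Control. The BCR-ABL sets lay on both sides of Control and differed 7.67-fold among themselves. The log2 fold change was 0.23 (SE 1.13, edgeR, adjusted p = 0.994), and -0.10 without BCR-ABL replicate 2 or -0.09 without replicate 4. Without replicate 1 it was 0.72 (SE 0.31, edgeR, adjusted p = 0.935). Exons of Tmem189 on the other strand overlap 312 bases of Cebpb.

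Cebpd (ENSMUSG00000071637, chromosome 16, 15887286 to 15891031, plus strand) encodes C/EBPδ, an acute-phase factor induced through STAT3. It had 122.1, 140.6 and 121.6 CPM in BCR-ABL, against 126.5 CPM in Control. Control lay inside the BCR-ABL range, and the log2 fold change was 0.04 (SE 0.17, edgeR, adjusted p = 0.993). Spidr overlaps 562 bases of its exons from the other strand.

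Cebpg (ENSMUSG00000056216, chromosome 7, 35046422 to 35056573, minus strand) encodes C/EBPγ, a dimer partner without a known activation domain. Cebpg lies on the same chromosome as Cebpa, and both are read away from the stretch between them. It had 32.9, 49.5 and 32.6 CPM in BCR-ABL, against 47.3 CPM in Control, with a log2 fold change of -0.28 (SE 0.32, edgeR, adjusted p = 0.914). Control lay inside the BCR-ABL range. The log2 fold change was -0.51 (SE 0.23, edgeR, adjusted p = 0.706) without BCR-ABL replicate 2, -0.19 without replicate 1 and -0.17 without replicate 4.

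Cebpz (ENSMUSG00000024081, chromosome 17, 78919006 to 78937066, minus strand), the ribosome assembly gene, had 89.4, 97.1 and 96.9 CPM in BCR-ABL, against 106.9 CPM in Control. Every BCR-ABL set was below Control, and the log2 fold change was -0.16 (SE 0.14, edgeR, adjusted p = 0.860). Cebpzos overlaps 171 bases of its exons from the other strand. The strand setting of the counting is not given in the sources used here, so reads of such overlaps cannot be told apart.

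**Figure D2:**
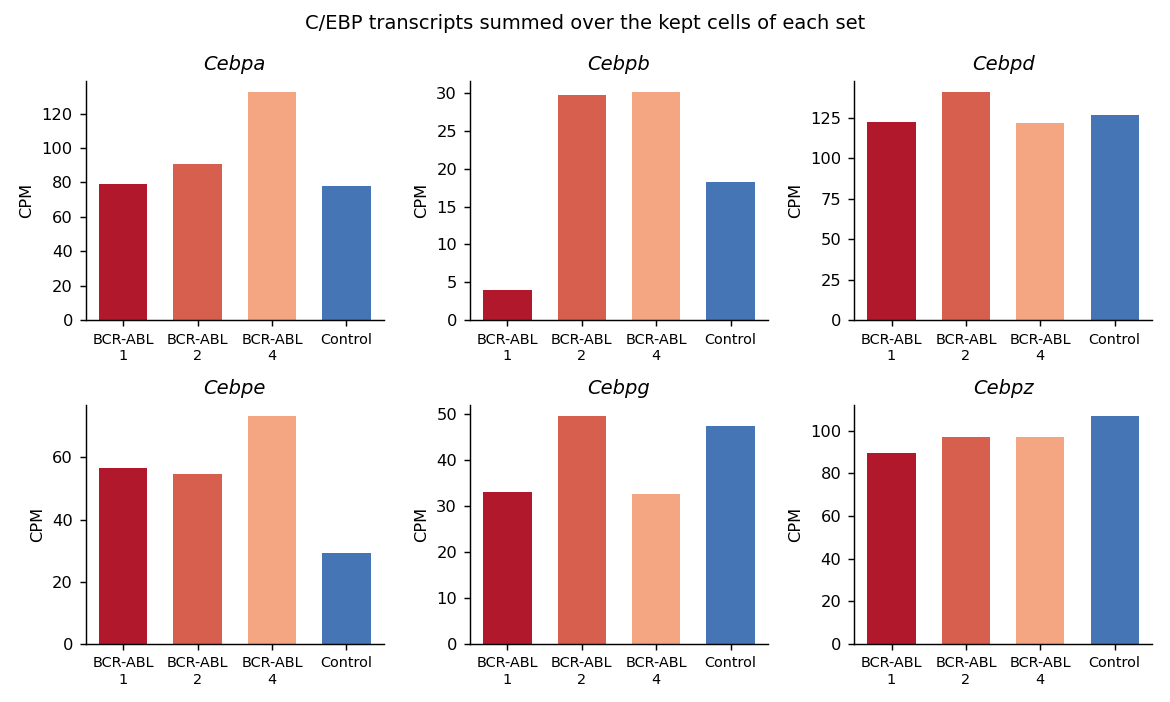
CPM (y axis) of the 6 C/EBP genes in sums over the cells of each set, 1 bar per set with no error bar, BCR-ABL replicates to the left and Control to the right. Cebpe stands at 54.5 CPM or more in the BCR-ABL sets and at 29.2 CPM in Control, while Cebpd lies between 121.6 and 140.6 CPM in all sets.

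The second question was in how many cells each transcript was present, counted as at least 10 reads in a thinned cell. Intervals are exact (Clopper-Pearson) at 95% and cover only the draw of cells within a set. They do not cover the spread between sets, so their overlap is no test between conditions. The reads carry no molecular identifiers. Cebpe was present in 50 of 65, 34 of 54 and 73 of 81 cells of BCR-ABL replicates 1, 2 and 4, against 34 of 90 Control cells. As shares these are 76.9% (interval 64.8 to 86.5), 63% (48.7 to 75.7) and 90.1% (81.5 to 95.6) in BCR-ABL, against 37.8% (27.8 to 48.6) in Control. At this limit no BCR-ABL interval overlapped that of Control, replicate 2 by a narrow margin. The share of all genes without such an overlap was not counted. At 1 read the shares were 86.2%, 83.3% (70.7 to 92.1) and 96.3% in BCR-ABL, against 64.4% (53.7 to 74.3) in Control. At 30 reads they were 55.4%, 38.9% (25.9 to 53.1) and 70.4% in BCR-ABL, against 21.1% (13.2 to 31) in Control. At both of these limits the interval of BCR-ABL replicate 2 overlapped that of Control. The median cell had 33, 21 and 52 Cebpe reads in BCR-ABL, against 3.0 in Control. Among cells over the limit, the mean was 55.5, 68.3 and 60.6 reads in BCR-ABL and 49.4 reads in Control, a mean that leaves out cells under the limit.

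Cebpa and Cebpd were present in most cells. The share for Cebpa was 90.8%, 92.6% and 93.8% in BCR-ABL, against 87.8% in Control, and all 4 intervals overlapped. The share for Cebpd was 93.8%, 98.1% and 95.1% in BCR-ABL, against 85.6% in Control. The intervals of BCR-ABL replicates 1, 2 and 4 overlapped that of Control, which reached up to 92.1%. Cebpz was present in 86.2%, 79.6% and 81.5% of BCR-ABL cells and 85.6% of Control cells. Cebpg was present in 55.4%, 64.8% and 53.1% of BCR-ABL cells and 56.7% of Control cells.

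Cebpb was on both sides of Control in presence too. Its share was 7.69% (interval 2.54 to 17), 55.6% (41.4 to 69.1) and 49.4% (38.1 to 60.7) in BCR-ABL, against 38.9% (28.8 to 49.7) in Control. By well series, BCR-ABL replicate 4 had 4.76% in the second and 100% in the fourth series, and Control ran between 18.2% and 61.9%. In BCR-ABL replicate 1, 33 of 65 cells had no Cebpb read. The median cell held 4 members over the limit in BCR-ABL replicate 1, 5 in replicates 2 and 4, and 4 in Control. The share with all 6 was 1.54%, 9.26% and 17.3% in BCR-ABL, against 4.44% in Control.

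**Figure D3:**
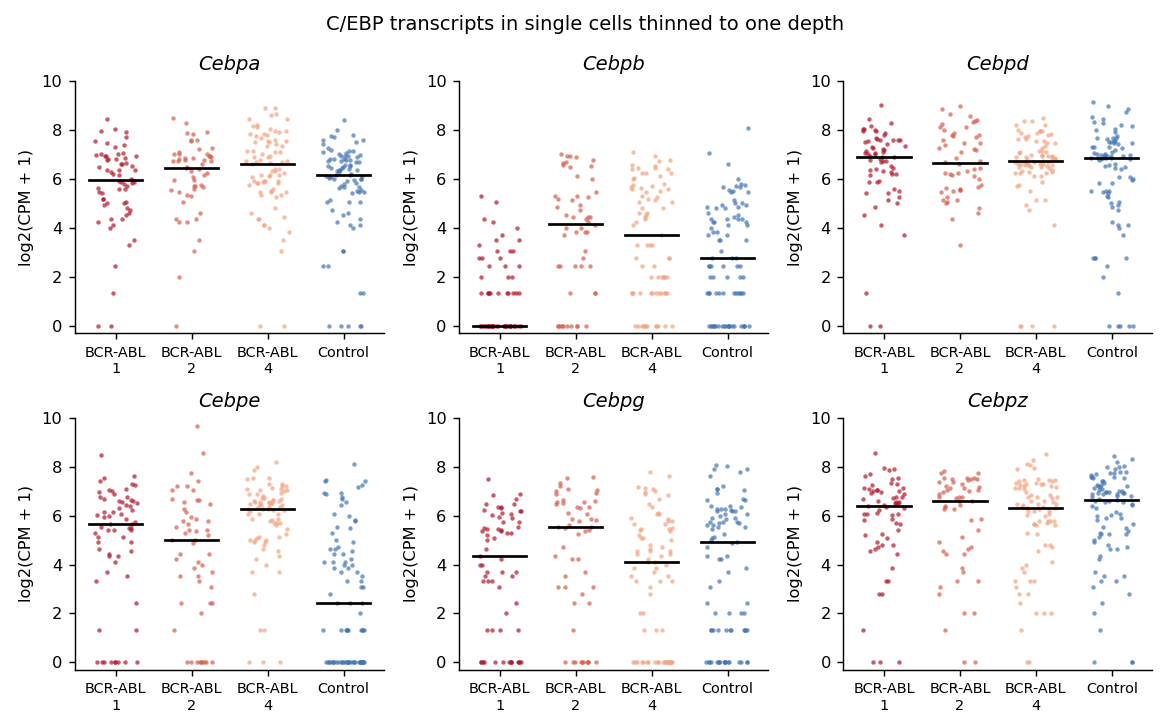
Each point is 1 thinned cell, at its log2(CPM + 1) of a C/EBP gene (y axis), by set (x axis, BCR-ABL replicates 1, 2 and 4, then Control), and the bar is the median. Cebpe points of Control gather near 0, where 32 of 90 cells have no read, while 3 of 81 cells of BCR-ABL replicate 4 have none.

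Levels were then followed along granulocyte maturation. Cells were ranked by a granulocyte score, the mean standardised level of 21 primary granule and late granulocyte genes. They were split into low, middle and high bins of about equal size. The score holds no C/EBP gene, but several of its genes, such as Elane and Lcn2, are C/EBP targets. The bins were filled unequally. The low bin held 9, 19 and 10 BCR-ABL cells against 59 Control cells, the middle bin 28, 17 and 24 against 28, and the high bin 28, 18 and 47 against 3. Control values in the high bin therefore rest on 3 cells. No test was made across bins.

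Cebpe and Cebpd were higher in the high than in the low bin in 4 of 4 sets, on the mean log2(CPM + 1) of cells. For Cebpe the difference was 2.75, 2.81 and 0.59 in BCR-ABL and 3.25 in Control. On mean CPM, Cebpe climbed from bin to bin only in BCR-ABL replicate 1, with 26, 53.6 and 86.1 CPM. BCR-ABL replicate 2 had 80.3 ± 45.5 CPM (SEM, 19 cells) in the low bin, 26.4 CPM in the middle bin and 85.8 ± 12.8 CPM (18 cells) in the high bin. BCR-ABL replicate 4 had 73.5, 51.4 and 98.3 CPM from the low to the high bin, and Control had 14.6, 58.8 and 38 CPM. The share of cells with Cebpe in BCR-ABL replicate 2 was 31.6% in the low bin and 94.4% in the high bin. Replicate 1 had 44.4%, 71.4% and 92.9% from the low to the high bin. Replicate 4 had 90%, 75% and 97.9%, so its share was already high in the low bin and did not climb from bin to bin. In Control the share was 25.4% in the low bin and 57.1% in the middle bin. For Cebpd the log2 difference was 1.73, 1.35 and 1.91 in BCR-ABL and 0.62 in Control. Mean Cebpd in BCR-ABL replicate 4 was 64.3 ± 13.2 CPM in the low bin, 103.1 ± 11.0 CPM in the middle bin and 153.3 ± 12.6 CPM in the high bin.

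Cebpz was lower in the high than in the low bin in 4 of 4 sets, with log2 differences of -0.73, -1.26 and -1.19 in BCR-ABL and -0.71 in Control. This Control value rests on 3 cells of the high bin. With late granulocyte genes alone it was 0.17, on 7 Control cells of the high bin. With primary granule genes alone it was 0, on 5 such cells. The BCR-ABL values stayed negative in each case. Cebpa showed no common direction, with 0.34, -0.18 and -0.73 in BCR-ABL and 0.12 in Control. Neither did Cebpg, with -0.07, -1.70 and 0.05 in BCR-ABL and 1.44 in Control. Cebpb had 0.59, 1.17 and -0.75 in BCR-ABL and 1.49 in Control. With cells centred within their well series, which was added after seeing the data, Cebpb gave 0.62, 0.60 and 1.0 in BCR-ABL and 1.09 in Control, positive in 4 of 4 sets.

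**Figure D4:**
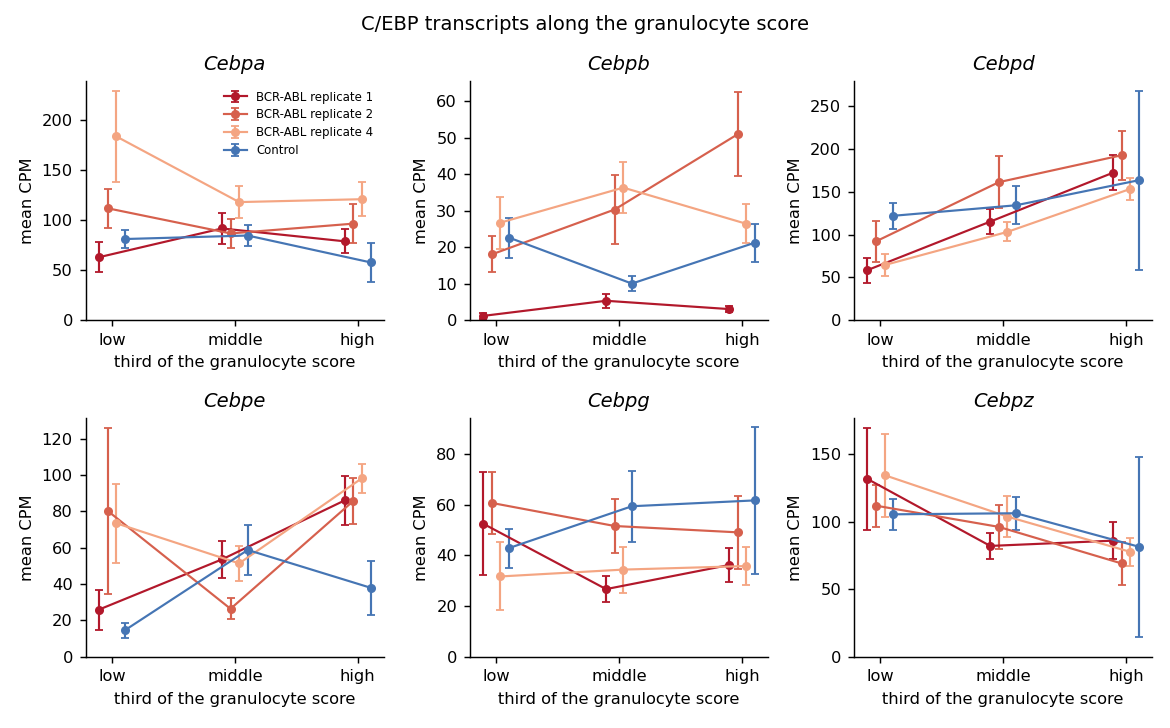
Mean CPM (y axis, bars are the standard error over cells) of each C/EBP gene in the low, middle and high bins of the granulocyte score (x axis), with a line for each set. Cebpd climbs in all sets and Cebpz is lower in the high than in the low bin in all sets, and the Control points of the high bin are means of 3 cells.

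The middle bin was the only one with at least 10 cells in every set, and there the conditions were tested within a narrower range of scores. The scores were not matched: their median was 0.02, -0.01 and 0.18 in BCR-ABL and -0.05 in Control. Cebpe had 48, 24.5 and 50.9 CPM in BCR-ABL sums of this bin, against 59.9 CPM in Control. Every BCR-ABL set was below Control, with a log2 fold change of -0.55 (SE 0.46, edgeR, adjusted p = 0.860). On means of thinned cells the values were 53.6, 26.4 and 51.4 CPM in BCR-ABL, against 58.8 ± 13.7 CPM (SEM) in Control. This Control bin holds the thinned Control cell with the most Cebpe, at 278.5 CPM. Leaving that cell out puts the Control mean of thinned cells below those of BCR-ABL replicates 1 and 4. The order of the sums without it was not tested. Cebpa had 87.7, 77.2 and 118 CPM in BCR-ABL, against 76.3 CPM in Control (log2 fold change 0.30, SE 0.29). Cebpb had 5.59, 31 and 33.9 CPM in BCR-ABL, against 9.49 CPM in Control (log2 fold change 1.29, SE 1.11). Cebpg had 25.6, 41.8 and 37.3 CPM in BCR-ABL, against 60.2 CPM in Control (log2 fold change -0.79, SE 0.35, edgeR, adjusted p = 0.842). None of the 6 passed, nor at an unadjusted p under 0.05, where 5.83% of 17009 genes stood (991), and 0% passed adjusted. The sign of the Cebpe value depended on how the bin was made: it was 0.42 with monocyte genes subtracted from the score and 0.57 with late granulocyte genes alone. Whether the Cebpe difference over all cells and that in the middle bin differ was not tested.

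Over single cells, Cebpe went with the granulocyte score at a Pearson r of 0.45, 0.46 and 0.28 in BCR-ABL and 0.46 in Control, and against the score of 13 monocyte genes at -0.50, -0.39 and -0.36 in BCR-ABL and -0.54 in Control. These and the following correlations are descriptions, computed within each set on thinned cells, 65, 54 and 81 in BCR-ABL and 90 in Control. Thinning gave the 290 cells the same number of reads, and other technical differences between cells of a set remain. Cebpd went with the granulocyte score at 0.45, 0.43 and 0.32 in BCR-ABL and 0.12 in Control. Cebpa had a mean r of -0.04 with it.

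Cebpe also separated cells by Gfi1 and Irf8, the fate regulators of neutrophils and monocytes. In cells with Gfi1 and without Irf8 (at least 10 reads each), mean Cebpe was 94.6, 151.4 and 93.9 CPM in BCR-ABL (35, 17 and 61 cells) and 117.8 CPM in Control (8 cells). In cells with Irf8 and without Gfi1 it was 26.9 and 11.1 CPM in BCR-ABL replicates 1 and 2 (14 and 13 cells) and 13.9 CPM in Control (51 cells), and replicate 4 had 1 such cell. Cells with both had 27.5, 28.4 and 37.2 CPM in BCR-ABL and 22.3 CPM in Control, below the Gfi1 cells in each set. In BCR-ABL replicate 1 the cells with both and those with Irf8 alone differed by little. Cebpa was also higher in Gfi1 than in Irf8 cells in the sets with both classes, by less. It had 88.4, 108.4 and 127.3 CPM in Gfi1 cells of BCR-ABL and 97.4 CPM in those of Control. Irf8 cells had 80.4 and 67.2 CPM of Cebpa in BCR-ABL replicates 1 and 2 and 87.9 CPM in Control. In cells with both, Cebpa had 72.9, 105.9 and 144.7 CPM in BCR-ABL and 64.1 CPM in Control, without a common order. Cebpd had 159.4, 154.5 and 135.5 CPM in Gfi1 cells of BCR-ABL and 152 CPM in those of Control. In Irf8 cells Cebpd had 104.8 and 103.9 CPM in BCR-ABL replicates 1 and 2 and 130 CPM in Control.

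Among the 15 pairs of members, 4 had a correlation of the same sign in 4 of 4 sets. The share of all gene pairs with such a common sign was not counted. Cebpa and Cebpb correlated at 0.05, 0.33 and 0.42 in BCR-ABL and 0.05 in Control. Within well series this became 0.03, 0.17 and 0.13 in BCR-ABL and 0.07 in Control. Cebpd and Cebpe correlated at 0.12, 0.19 and 0.28 in BCR-ABL and 0.03 in Control, and within well series at 0.15, 0.16 and 0.26 in BCR-ABL and 0.10 in Control. Cebpe and Cebpz ran opposite at -0.23, -0.38 and -0.03 in BCR-ABL and -0.06 in Control. Cebpg and Cebpz correlated at 0.02, 0.08 and 0.07 in BCR-ABL and 0.14 in Control. The mean of this pair was 0.08, with 0.16 in cells that were not thinned and -0.0 by rank (Spearman) correlation. All these values are weak. Cebpa and Cebpe, the early and late factors, had a mean r of -0.06. As Cebpa was present in most cells, the share with both follows the share with Cebpe, and was 67.7%, 57.4% and 84% in BCR-ABL, against 33.3% in Control. Likewise, cells with Cebpa and without Cebpe made up 23.1%, 35.2% and 9.88% of BCR-ABL cells and 54.4% of Control cells.

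**Figure D5:**
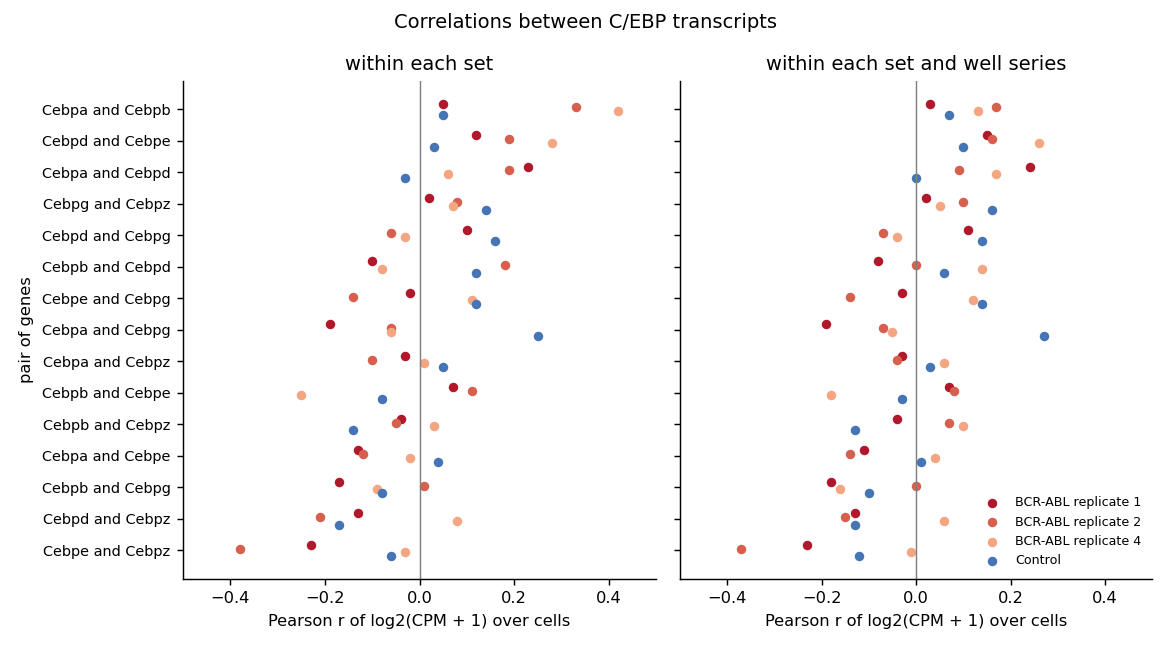
Pearson r of log2(CPM + 1) over thinned cells (x axis) for the 15 pairs of C/EBP genes (y axis, ordered by mean r), 1 point per set, with cells compared within sets on the left and within well series on the right. The Cebpa and Cebpb points of BCR-ABL replicates 2 and 4 lie at 0.33 and 0.42 on the left and at 0.17 and 0.13 on the right.

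Genes most alike to each member were ranked among 8444 genes by the mean within-set r. For Cebpe they were Pglyrp1, a peptidoglycan-binding granule protein (0.54), Cd63, a tetraspanin of granule membranes (0.47), the clock gene Per3 (0.45), Nkg7 (0.43, a gene of the score) and the nuclear envelope gene Sun2 (0.42). Pglyrp1 had 0.54, 0.40 and 0.61 in BCR-ABL and 0.60 in Control. For Cebpd they were Mgst2, a glutathione transferase of the membrane (0.38), the granule protease gene Prtn3 (0.32), and Wfdc21, Dstn and Plpp5 (0.31 each). For Cebpa no gene passed 0.26, the value of the kinase subunit gene Pik3cd and of H2afy, followed by Nfyc, Btg1 and Rbm27 at 0.24. For Cebpb they were Mir6236 (0.50), Pcbp1 (0.42), Ybx1 (0.41), Hnrnpab (0.37) and Edem1 (0.32). Those of Cebpb lay between 0.21 and 0.30 within well series, while those of Cebpe lay between 0.41 and 0.52.

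Other genes of the pathway were taken from 3 lists, which share genes with the granulocyte lists, and no gene of them passed the test. Their counts stand against all 20324 genes, of which 54.2% had a positive log2 fold change and 7.18% an unadjusted p under 0.05, 771 higher and 688 lower. Of 12 tested partners and regulators of C/EBP proteins, 4 had a positive and 8 a negative log2 fold change (median -0.05), and 1 had an unadjusted p under 0.05 on the higher side. Pcbp2, which encodes the RNA-binding protein that blocks CEBPA translation in human leukaemia cells, had 129, 135 and 141 CPM in BCR-ABL, against 140 CPM in Control (log2 fold change -0.04, SE 0.14, edgeR, adjusted p = 0.989). Ddit3, which encodes the dominant-negative family relative CHOP, had 16.6, 26.8 and 16.9 CPM in BCR-ABL, against 20.4 CPM in Control. Trib1, which encodes a pseudokinase that marks C/EBPα for breakdown, had 38.5, 25.5 and 7.67 CPM in BCR-ABL, against 25.6 CPM in Control. Its relative Trib3 had 0.991, 0.503 and 1.30 CPM in BCR-ABL, against 0.136 CPM in Control. The ubiquitin ligase gene Cop1, the RNA-binding gene Celf1 and the stress factor gene Atf3 had log2 fold changes of 0.51 (SE 0.28), -0.25 (SE 0.18) and -2.80 (SE 2.17).

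Of 16 upstream inputs, 8 had a positive and 8 a negative log2 fold change (median 0.16), with an unadjusted p under 0.05 for 3 higher and 3 lower. The shares over all genes were 54.2% positive and 7.18% with such a p. Il6ra, the interleukin-6 receptor, had 68.3, 85.5 and 63.1 CPM in BCR-ABL, against 129 CPM in Control (log2 fold change -0.82, SE 0.22, edgeR, adjusted p = 0.646). Gfi1, the repressor of monocyte genes, had 103, 83.5 and 160 CPM in BCR-ABL, against 41.5 CPM in Control (1.49, SE 0.42, edgeR, adjusted p = 0.646). Rara, a retinoic acid receptor that activates Cebpe, had at most 0.837 CPM in BCR-ABL, against 6.97 CPM in Control. Socs3, a feedback inhibitor of STAT3, had 9.81, 7.97 and 1.67 CPM in BCR-ABL, against 0.387 CPM in Control. Csf3r, the granulocyte colony-stimulating factor receptor, had 146, 165 and 167 CPM in BCR-ABL, against 129 CPM in Control (0.33, SE 0.15). Irf8 had 259, 421 and 62.4 CPM in BCR-ABL, against 990 CPM in Control.

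Of 18 tested C/EBP target genes, 13 had a positive and 5 a negative log2 fold change (median 0.38), with an unadjusted p under 0.05 for 6 higher and 3 lower. Over all genes 54.2% were positive and 7.18% had such a p. The target list shares genes with the primary granule and late granulocyte lists, whose sums above were already higher. Lcn2, a secondary granule gene, had 433, 256 and 513 CPM in BCR-ABL, against 46.1 CPM in Control (log2 fold change 3.14, SE 0.49, edgeR, adjusted p = 0.594). Elane, neutrophil elastase, had 17921, 16818 and 19138 CPM in BCR-ABL, against 12980 CPM in Control (0.49, SE 0.08, edgeR, adjusted p = 0.594). Ctsg, cathepsin G, had a value of 0.58 (SE 0.14) and Mpo, myeloperoxidase, one of 0.00 (SE 0.06). Lyz2, lysozyme, had 301, 479 and 333 CPM in BCR-ABL, against 936 CPM in Control (-1.31, SE 0.28, edgeR, adjusted p = 0.619). Ltf, the lactoferrin of late secondary granules, was at or under 0.078 CPM in each set, too low to be tested.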

How the data were processed

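Single GMPs were sorted into wells and their cDNA was made by SMART-seq2 and sequenced as Nextera XT libraries, per the labels' protocols. The authors deposited raw counts, with a row for each Ensembl gene and a column for each well, made with GSNAP and HTSeq 0.5.3p3 on mm10, per the submitters' processing notes. The annotation release is not given in the sources used here, nor is the strand setting. Symbols came from GENCODE on mm10 and matched 45143 of 46078 identifiers. Of all reads, 44.9% lay on genes. Summary rows (54.8%) and spike-ins (0.26%) stayed out of library sizes and tests.

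Counts were summed over the cells of a set, since cells are not replicates. The test was edgeR 4.0.16 (quasi-likelihood, TMM, filterByExpr; R 4.3.3), adjusted by Benjamini-Hochberg with a threshold of 0.05, with limma 3.58.1 and DESeq2 1.42.0 as alternatives. The 2 residual degrees of freedom come from the BCR-ABL sets, and the Control set, a single one, is assumed to vary like them, so its condition and its set cannot be told apart. On simulated data with the same spread for every gene, the test recovered the changed genes where sums varied little. It did not at the common spread of these sums. Set sums held between 121378632 and 140995697 reads on genes, and kept cells between 50434 and 4758711. Each well was sorted for 1 cell and no doublet caller was run. CPM is counts per 1000000 reads on genes and the pseudocount was 1.

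Members, lists and tests were chosen with earlier results of these data known. Named genes are the 6 members, up to 4 genes of each of 3 lists with the smallest p, 10 set by name, and the 5 genes most alike to each of 4 members (with a read in at least 25% of cells of every set), without predicted genes and pseudogenes. Irf8, Xist and the genes of the gate are named beside these.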

Additional observations from a re-analysis of the deposited data

How the results depend on the processing

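No paired analysis was possible because Control is a single set without a replicate number, so no replicate block could be fitted. DESeq2 called 557 genes where edgeR called 0, and it called Cebpe at 1.08, while 7 other settings and the sets left out in turn called 0 genes. The Cebpe log2 fold change over all cells lay between 0.96 and 1.29 under 12 alternatives, Cebpa between 0.16 and 0.53, Cebpg between -0.51 and -0.17 and Cebpz between -0.22 and -0.13. Cebpb changed sign to -0.22 with limma-voom and to -0.36 with mean CPM per cell, and lay between -0.10 and 0.72 with a BCR-ABL set left out. Cebpd lay between -0.04 and 0.08 with a set left out. In the middle bin, the sign turned with late granulocyte genes alone for Cebpb (-0.32), Cebpe (0.57, and 1.08 in the low bin), Cebpg (0.15 in the low bin) and Cebpz (0.18). It turned with primary granule genes alone for Cebpd (0.21), with monocyte genes subtracted for Cebpd (0.44) and Cebpe (0.42), and in an inner bin of 4 for Cebpe (0.15), Cebpg (0.05) and Cebpz (0.02). Between high and low bins, subtracting monocyte genes gave -0.70 for Cebpa, 0.54 for Cebpd, 3.95 for Cebpe and -1.51 for Cebpg. Cebpz gave -1.41 with 4 bins and -0.23 with late granulocyte genes alone. Members present more often in every BCR-ABL set than in Control were 3 (Cebpa, Cebpd and Cebpe) at 10 reads and at 1 read. They were 2 (Cebpd and Cebpe) at 30 reads, and 1 (Cebpe) at 10 reads without thinning. The share of all genes with such an order was not counted. For values that changed, the cause was not tested. Depth limits Cebpb most, with 496 reads in BCR-ABL replicate 1, and the low number of Control cells in the high bin limits every comparison there.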
